A study of Drosophila melanogaster with 16 samples.

Results

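Whole wild-type larvae of the fruit fly Drosophila melanogaster that had spent 16 h on a high-sugar diet (HSD 16 h, 4 libraries) were compared with larvae kept for 8 h on a low-sugar diet (LSD, 4 libraries). These 8 libraries were taken by their labels from the 14 libraries of the deposited table; the labels list 16 libraries, and 2 of them, marked as removed outliers, were not analysed here. The high-sugar food held 10% yeast with 15% sucrose, and the low-sugar food held 10% yeast. Larvae of both groups had fed on LSD for 24 h at 25 °C before the move, were early in the second instar when moved, and then ate food coloured with 2% blue dye. HSD larvae sampled at 4 h (3 libraries) and at 8 h (3 libraries) give the hours in between. Diet and hours on the plate differ together between HSD 16 h and LSD. Their effects, and those of the larvae's age and stage and of any difference in time of day, cannot be told apart in this comparison. Neither the number of larvae in a sample, nor the strain behind the wild type, nor whether replicates were separate cultures is known here. The p-values therefore cover only how these libraries scatter, which can be technical.

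In Drosophila the transcription factor Mondo, paired with bigmax (Mlx in mammals), senses sugar phosphates and drives genes that turn dietary sugar into stored lipid, among them further regulators such as sugarbabe and cabut. The larval gut digests the food, the fat body stores sugar carbon as triglyceride and glycogen, and insulin-like peptides and the TOR pathway tie growth to nutrition. A larva also sheds its cuticle between instars, under control of the steroid hormone ecdysone, and cuticle and chitin genes are switched on in short waves around each molt. In RNA from whole bodies, a lower level of a gene can come from fewer cells of a type or from less RNA per cell, and these cannot be told apart.

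The libraries held 19443170 to 22209115 reads at HSD 16 h and 16300308 to 25284073 reads on LSD. Values are the authors' normalised read counts, 3 reads in a library correspond to 0.117 to 0.182 of them, and such floors cover counting error only. Log2 differences are HSD 16 h minus LSD and were taken after adding 0.5 to each value, a step that shrinks the differences of weakly expressed genes. Folds are these differences turned back to ratios. Adjusted p-values are from limma with Benjamini-Hochberg adjustment over 10039 genes, and a gene is said to rise or fall, or is called, where the adjusted p is under 0.05. Genes are named by a rule on size and test given with the processing, and others were added after their values were seen, among them ACC, bmm, Mal-A1, Thor and the insulin-like peptides. Some libraries stood apart. HSD 16 h replicate 2 and LSD replicates 2 and 3 were rich in some cuticle transcripts, such as TwdlJ (0, 12.6, 0 and 0.147 at HSD 16 h, against 0.938, 17.4, 33.6 and 0.727 on LSD). The HSD 8 h libraries were not low in cuticle genes, with median log2 differences from the LSD mean of -0.19, 0.41 and 0.71. They stay in when the 3 cuticle-rich libraries are left out. Against HSD 8 h that setting removes HSD 16 h replicate 2 alone from the groups compared. HSD 16 h replicate 1 was high in antimicrobial peptide transcripts, such as Mtk (6.66, 0.296, 0.319 and 0.831 in HSD 16 h replicates 1 to 4).

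Of 10039 genes, 4011 (40.0%) were called, 1957 (19.5%) higher and 2054 (20.5%) lower at HSD 16 h than on LSD. The changes were mostly small, with a median fold of 1.39 among called genes, but large falls outnumbered large rises: 332 genes (3.31%) rose and 594 (5.92%) fell at least 2-fold, and 70 (0.697%) rose and 210 (2.09%) fell at least 4-fold. The 8 libraries did not overlap between the groups for 3671 genes (36.6%). The median log2 difference over all genes was -8.9e-05 and became 0.12 when all columns were scaled to the same sum, because the column sums were lower at HSD 16 h (910679 to 950524) than on LSD (987285 to 1057250). Under that scaling the split of calls was 3173 higher and 1384 lower, and under quantile normalization 2439 higher and 1670 lower, so the direction of small changes depends on the scaling. Gene lists are described by how many of their tested members rose or fell and by the median log2 difference of those members, set against these shares and this median over all genes. The lists name 1076 different genes of the table, and 1065 of them passed the filter of 1 or more in at least 3 of the 8 libraries. A gene that passed through 1 group alone had to differ, so counts over tested members stand as descriptions. The plot of gene lists shows all 49 lists.

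**Figure D1:**
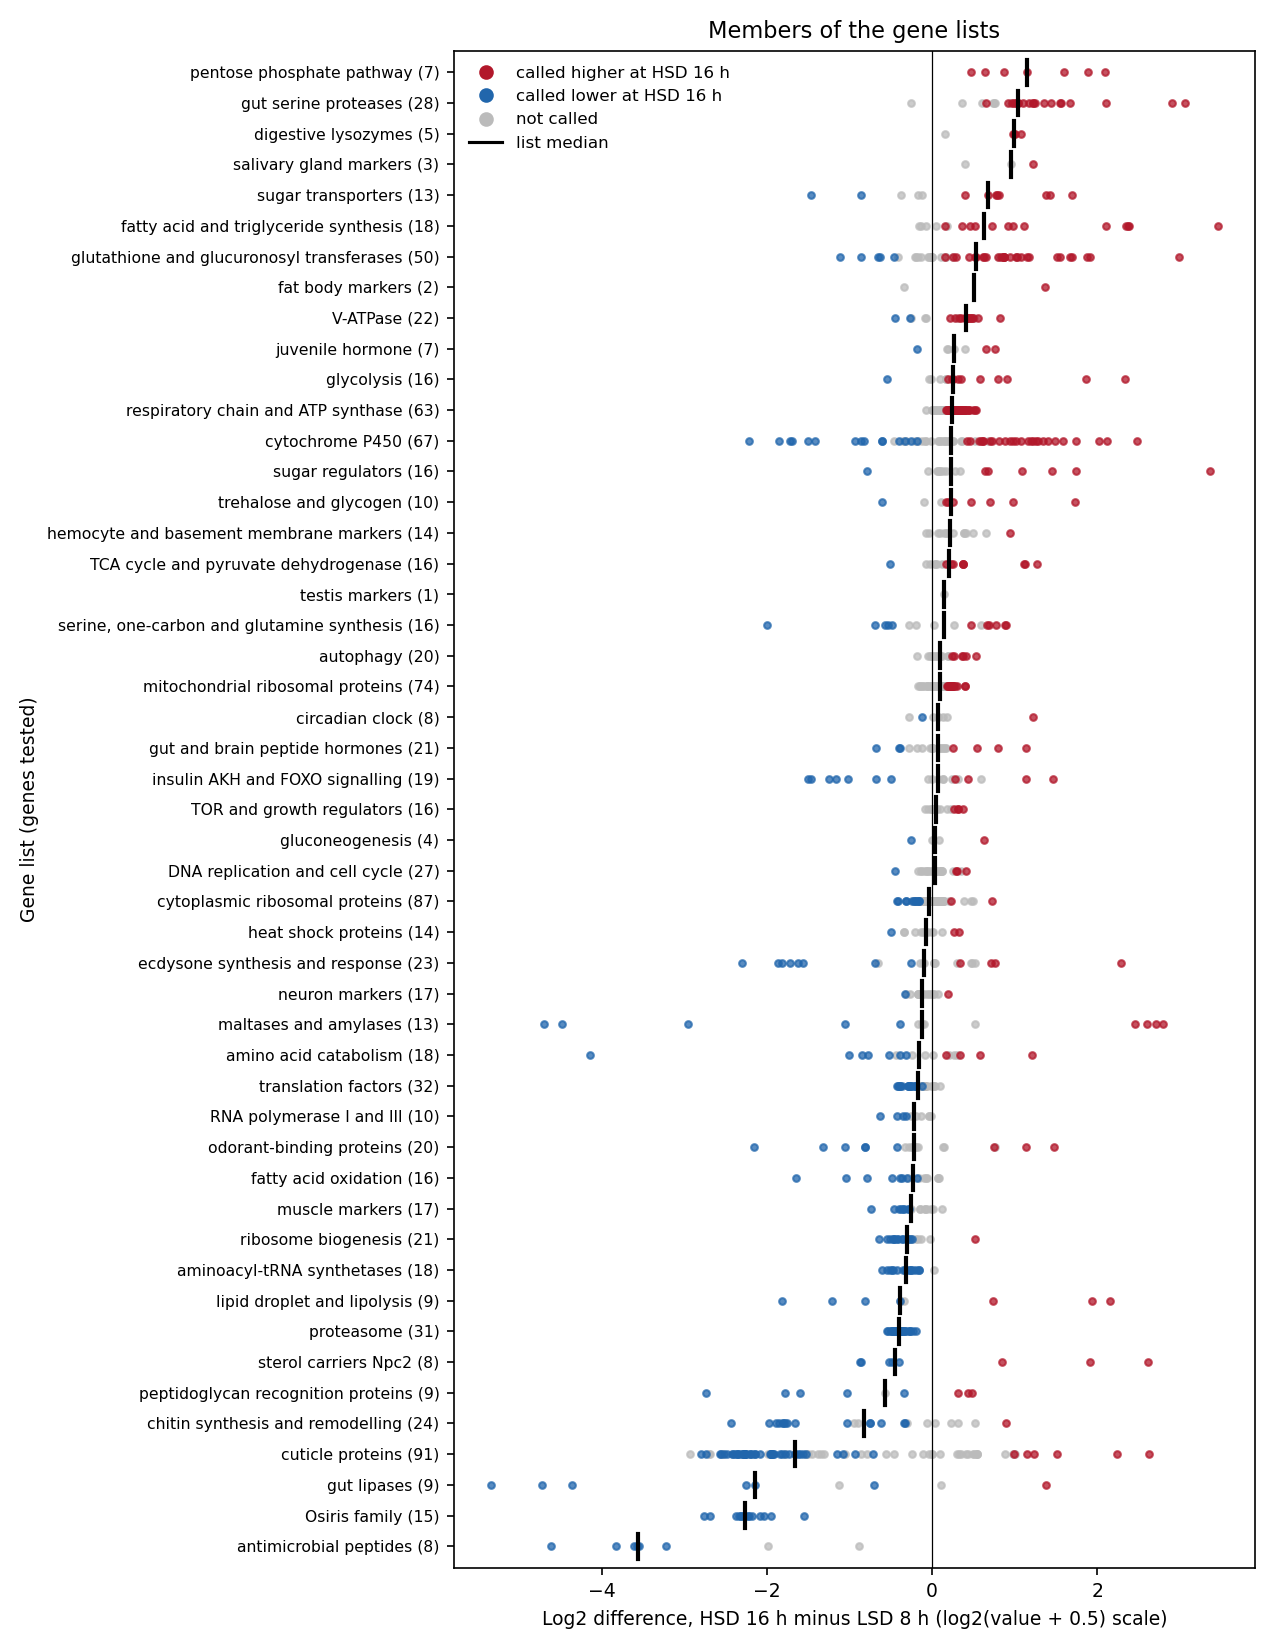
Log2 differences of 49 gene lists, HSD 16 h minus LSD 8 h, with 1 point per gene tested (number in brackets), red where called higher at HSD 16 h, blue where called lower, grey where not called, and a black bar at the list median. Pentose phosphate, digestive protease and fatty acid synthesis genes lie to the right, and lipase, cuticle, Osiris and antimicrobial peptide genes lie to the left with list medians from -1.66 to -3.55.

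Mondo, its partner bigmax and the regulators sug, cbt and daw rose after 16 h on sugar. Sugarbabe (sug, FBgn0033782), a zinc-finger transcription factor that drives lipid synthesis genes, had normalised read counts of 122, 114, 119.6 and 120.5 at HSD 16 h, against 10.7, 12.9, 10.1 and 11.1 on LSD. All HSD 16 h libraries lay about an order of magnitude above all LSD libraries. It rose 10.2-fold (log2 3.36, SE 0.09, adjusted p = 1.34e-10). Cabut (cbt), a repressor of metabolic genes that Mondo is known to induce, had 129, 126, 131 and 131 at HSD 16 h, against 42.7, 55.6, 42 and 48.9 on LSD, and rose 2.73-fold (log2 1.45, SE 0.09, adjusted p = 1.82e-07). Mondo itself had 255, 261, 285 and 277 at HSD 16 h, against 119, 141, 114 and 133 on LSD. Its partner bigmax had 25.7, 21.8, 25.1 and 20.9 at HSD 16 h, against 13.7, 13.1, 13.4 and 17.8 on LSD. Both rose without overlap between the groups, by 2.12-fold (adjusted p = 2.65e-07) and 1.60-fold (adjusted p = 0.000898). Dawdle (daw), an activin-type ligand known as a Mondo target in sugar tolerance, had 58.7, 56.1, 58.97 and 59 at HSD 16 h, against 14.4, 19.6, 15.6 and 18.8 on LSD, and rose 3.36-fold (log2 1.75, SE 0.09, adjusted p = 5.78e-08). In the reference annotation sug overlaps CG13319 on the same strand, and cbt and bigmax overlap ush and CG3368 on the opposite strand. Whether the authors' counting used the strand is not known here.

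Of the 16 measured sugar regulators 6 rose and 1 fell, with a list median of 0.23, where 19.5% of all tested genes rose and 20.5% fell. With equal column sums 11 of the 16 were called higher, with a median of 0.35, and under quantile normalization 8. SCAP, the escort of the lipid regulator SREBP, rose 1.55-fold (log2 0.64, SE 0.09, adjusted p = 0.000131), while SREBP had 285, 267, 271 and 285 at HSD 16 h, against 246, 284, 215 and 301 on LSD, with overlapping groups. The nuclear receptor gene Hr38 fell to 1.40, 1.69, 2.55 and 1.81 at HSD 16 h, against 3.32, 4.22, 3.60 and 3.03 on LSD (log2 -0.79, SE 0.14, adjusted p = 0.000895). Clockwork orange (cwo), the repressor of the circadian clock named in the study's title, had 76.99, 77.7, 95.5 and 80.3 at HSD 16 h, against 72.3, 89.3, 73.6 and 80.2 on LSD. The 2 groups overlapped, and cwo was not called (log2 0.07, SE 0.08, adjusted p = 0.561). The growth regulator gene Myc (log2 0.05, adjusted p = 0.74), the stress factor foxo (log2 -0.05, adjusted p = 0.712), the TORC1-repressed REPTOR (log2 0.28, adjusted p = 0.0734) and REPTOR-BP (log2 0.33, adjusted p = 0.115) were not called either. Nor were crc, the fly ATF4 (log2 0.13, adjusted p = 0.0569), ERR (log2 0.17, adjusted p = 0.155) and Hnf4 (log2 0.10, adjusted p = 0.28). With equal column sums REPTOR, REPTOR-BP, crc, ERR and Hnf4 were called higher. REPTOR and crc were also called higher under quantile normalization and without LSD replicate 2, and REPTOR and REPTOR-BP without LSD replicate 4. The lowest adjusted p was 0.0189 for REPTOR, 0.0218 for REPTOR-BP and 0.000636 for crc. The differences of cwo and Myc changed sign without HSD 16 h replicate 3, and that of foxo under quantile normalization, with equal column sums and without HSD 16 h replicate 1 or LSD replicate 2. Of 8 clock genes, with a median of 0.07, timeless (tim) rose 2.33-fold (log2 1.22, SE 0.20, adjusted p = 0.000504) and dco fell by 0.13 on the log2 scale. The fall of dco was not called under 13 of the alternatives. The part of any difference in time of day between the groups in these clock genes was not tested.

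**Figure D2:**
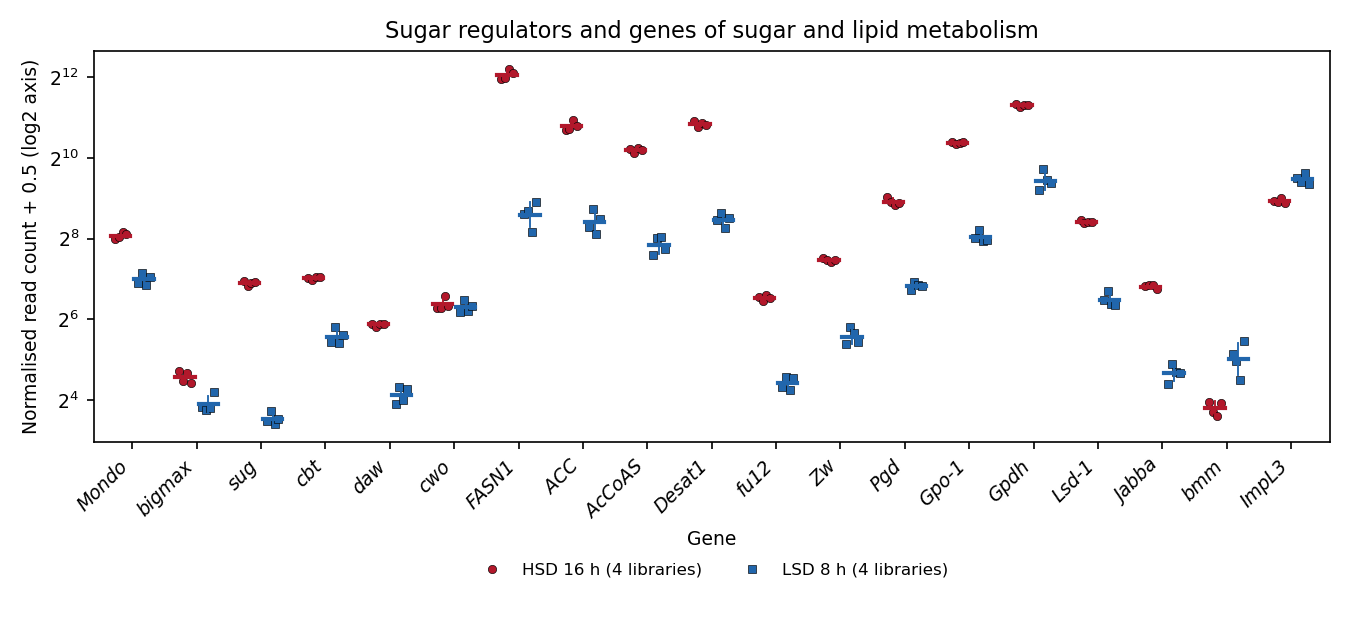
Normalised read count + 0.5 (log2 axis) of 19 genes of sugar sensing, sugar metabolism and lipid metabolism, HSD 16 h in red and LSD 8 h in blue, with 1 point per library, a bar at the mean and a line of ± 1 SD of the log2 values. The 4 HSD 16 h libraries lie above the 4 LSD libraries for every gene shown except cwo, where they overlap, and bmm and ImpL3, where they lie below.

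Genes that build fatty acids and triglycerides were high. Of 18 measured genes 13 rose and 0 fell, with a median log2 difference of 0.62. Fatty acid synthase 1 (FASN1), which makes palmitate, had normalised read counts of 3985, 4000, 4740 and 4359 at HSD 16 h, against 391, 412, 287 and 479 on LSD. Each HSD 16 h library stood far above every LSD library, and the gene rose 11.04-fold (log2 3.46, SE 0.14, adjusted p = 6.16e-09). Acetyl-CoA carboxylase (ACC), which makes the malonyl-CoA that FASN1 uses, had 1646, 1681, 1943 and 1768 at HSD 16 h, against 310.4, 422, 275 and 358 on LSD, and rose 5.20-fold. The acetyl-CoA synthetase AcCoAS had 1186, 1113, 1212 and 1164 at HSD 16 h, against 192, 258, 261 and 212 on LSD, and rose 5.09-fold. The desaturase Desat1, which puts a double bond into the new fatty acids, had 1927, 1725, 1864 and 1798 at HSD 16 h, against 354, 396, 308 and 364 on LSD, and rose 5.15-fold (log2 2.37, SE 0.08, adjusted p = 1.02e-09). For all 4 of these genes the lowest HSD 16 h library was more than 2 times the highest LSD library. The acyltransferase fu12 (Agpat2), a step of glycerolipid synthesis, had 92.8, 86.99, 96.1 and 92.3 at HSD 16 h, against 19.7, 23.2, 18.7 and 22.96 on LSD, and rose 4.29-fold (adjusted p = 1.46e-09). The last step to triglyceride, the diacylglycerol acyltransferase mdy, rose by a log2 difference of 0.45, and ATP-citrate lyase (ATPCL) by 0.92. FASN2, FASN3, CG3812, Lpin and Baldspot were not called, with log2 differences of -0.13, -0.16, 0.04, 0.18 and -0.07.

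All 7 measured genes of the pentose phosphate pathway, the main cytosolic source of the NADPH that fatty acid synthesis consumes, rose, with a median log2 difference of 1.15. Phosphogluconate dehydrogenase (Pgd) had 524, 481, 454 and 475 at HSD 16 h, against 105, 120.5, 115 and 113 on LSD. Glucose-6-phosphate dehydrogenase (Zw) had 182, 177, 171 and 176 at HSD 16 h, against 41.6, 55.3, 49.8 and 43.1 on LSD. The groups lay far apart, and these 2 oxidative steps rose 4.26-fold (log2 2.09, SE 0.06, adjusted p = 1.34e-10) and 3.71-fold (log2 1.89, SE 0.08, adjusted p = 5.35e-09). The transketolase CG8036 had 1620, 1484, 1568 and 1576 at HSD 16 h, against 487, 633, 467 and 495 on LSD, and rose 3.02-fold. Of the glycolytic genes 10 of 16 rose and 1 fell, with a median of 0.25. The largest rises in that list were in Gpo-1 and Gpdh, which use and make glycerol 3-phosphate, the backbone of triglycerides. Gpo-1, the mitochondrial glycerophosphate oxidase, had 1333, 1304, 1316 and 1333 at HSD 16 h, against 259, 298, 244 and 249 on LSD, and rose 5.04-fold (log2 2.33, SE 0.07, adjusted p = 1.34e-10). Gpdh, its cytosolic partner, had 2592, 2454, 2534 and 2532 at HSD 16 h, against 586, 852, 697 and 665 on LSD, and rose 3.64-fold (log2 1.86, SE 0.10, adjusted p = 3.82e-08). Pyruvate kinase (PyK) rose 1.74-fold and Pfrx, which makes and removes the glycolytic activator fructose 2,6-bisphosphate, by a log2 difference of 0.90, while lactate dehydrogenase (ImpL3) fell to 486, 476, 512 and 473 at HSD 16 h, against 729, 673, 789.8 and 657 on LSD (log2 -0.55). Hex-A, Pfk, Tpi, Gapdh1 and Pglym78 were not called (log2 0.16, -0.02, 0.09, 0.16 and -0.04).

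Carbon stores and transport changed in parts. Of 10 genes of trehalose and glycogen metabolism 7 rose and 1 fell, with a median of 0.23. Trehalose is the main blood sugar of flies, and the trehalose-making Tps1 had 344, 313, 331 and 329 at HSD 16 h, against 155, 212, 124 and 192 on LSD, a rise of 1.97-fold without overlap. CG5171, which resembles trehalose phosphatases, had 46.7, 44.02, 49.7 and 40.3 at HSD 16 h, against 12.4, 17.5, 11.2 and 12.7 on LSD, and rose 3.31-fold (log2 1.73, SE 0.14, adjusted p = 1.97e-06). Trehalase (Treh), which splits trehalose, fell to 127, 127, 136 and 141, against 186, 255, 168 and 206 on LSD (log2 -0.60, adjusted p = 0.00782). The glycogen branching enzyme AGBE rose 1.62-fold (adjusted p = 5e-06) and glycogen phosphorylase GlyP rose 1.39-fold (adjusted p = 2.44e-05). Of 13 sugar transporters 8 rose and 2 fell, with a median of 0.67 that was 0.39 without the 3 cuticle-rich libraries. CG1213 rose 3.24-fold (log2 1.69, SE 0.20, adjusted p = 3.83e-05), CG7882 2.68-fold (log2 1.42, SE 0.17, adjusted p = 4.08e-05) and the trehalose transporter Tret1-1 by a log2 difference of 0.79. In contrast, sut1 fell to 42.7, 41.4, 44.4 and 43.5 at HSD 16 h, against 111, 152, 96.5 and 127 on LSD (log2 -1.47, SE 0.13, adjusted p = 6.45e-06). Of 4 measured gluconeogenesis genes, with a median of 0.04, pyruvate carboxylase (PCB) rose (log2 0.63, SE 0.11, adjusted p = 0.000719) and fructose-1,6-bisphosphatase (fbp) fell (log2 -0.26, SE 0.07, adjusted p = 0.00747). The fall of fbp was not called under quantile normalization, with equal column sums or without the 3 cuticle-rich libraries (adjusted p up to 0.144).

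Among genes of lipid droplets and lipolysis, coat protein genes rose while lipase genes fell. Of 9 measured genes 3 rose and 4 fell, with a median of -0.39. The perilipin Lsd-1 had 349, 332, 338 and 341 at HSD 16 h, against 88.2, 103, 83.05 and 81.5 on LSD (log2 1.94, SE 0.07, adjusted p = 1.46e-09). The droplet protein Jabba had 112, 114, 114 and 107 at HSD 16 h, against 20.6, 29.1, 25.4 and 25.1 on LSD (log2 2.15, SE 0.08, adjusted p = 3.05e-09). The perilipin Lsd-2 had 146, 148, 159.8 and 148 at HSD 16 h, against 86.1, 102, 86.3 and 87.5 on LSD (log2 0.73, SE 0.07, adjusted p = 7.32e-06). These coat genes, which protect stored fat and dock proteins on it, rose 3.82-fold, 4.43-fold and 1.66-fold, each without overlap. Brummer (bmm), the main triglyceride lipase of the fat body, fell to 15, 12.7, 11.6 and 14.9, against 34.8, 30.9, 22.2 and 43.5 on LSD (log2 -1.22, adjusted p = 0.000175). The hormone-sensitive lipase Hsl (log2 -0.39), Lip3 (log2 -1.81) and Lip4 (log2 -0.81) fell too. In mitochondrial fatty acid oxidation 8 of 16 genes fell and 0 rose, with a median of -0.24. CG12262 (Mcad), a medium-chain acyl-CoA dehydrogenase, fell to 146, 120.1, 91.2 and 128, against 348, 398, 368 and 388 on LSD (log2 -1.64, SE 0.13, adjusted p = 1.72e-06). The thiolase yip2 had 163, 157, 150.4 and 160.4 at HSD 16 h, against 298, 332, 349 and 326 on LSD (log2 -1.05, SE 0.06, adjusted p = 2.05e-07). The carnitine transporter colt fell (log2 -0.38, SE 0.06, adjusted p = 0.000283), as did the carnitine palmitoyltransferase whd (log2 -0.79), the entry gate for fatty acids into mitochondria. Without the 3 cuticle-rich libraries 4 genes of this list were called lower, and under quantile normalization 5.

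The pyruvate dehydrogenase complex, which feeds pyruvate into the TCA cycle, was higher at HSD 16 h. Its E1 alpha gene l(1)G0334 (Pdha) had 847, 826, 849 and 811 at HSD 16 h, against 384, 404, 393 and 365 on LSD. Its E1 beta gene CG11876 (Pdhb) had 579, 519.9, 525 and 545 at HSD 16 h, against 235, 263, 258 and 238 on LSD. Its E2 gene muc had 589, 561, 615 and 590.4 at HSD 16 h, against 234, 272, 224 and 246 on LSD. The 3 genes rose 2.15-fold (adjusted p = 5.35e-09), 2.18-fold (adjusted p = 2.92e-08) and 2.42-fold (adjusted p = 3.82e-08), each without overlap. Its inhibitory kinase Pdk had 104, 105, 100 and 102 at HSD 16 h, against 79.9, 127, 81.2 and 115 on LSD, and was not called. In the whole list of 16 TCA cycle and pyruvate dehydrogenase genes, with a median of 0.20, 9 rose, and 1, the isocitrate dehydrogenase Idh, fell (log2 -0.51, adjusted p = 0.000294). Nuclear genes of the respiratory chain and ATP synthase rose slightly and in number: 41 of 63 rose and 0 fell, with a median log2 difference of 0.24. Examples are the complex II subunit SdhB (1.36-fold, adjusted p = 9.71e-06), the complex I subunit ND-13B (1.43-fold, adjusted p = 1.38e-05) and the complex III subunit UQCR-Q (1.44-fold, adjusted p = 2.5e-05). Over all alternatives 34 to 56 genes of this list were called higher and 0 lower. Of 22 subunits of the V-ATPase, the proton pump that acidifies lysosomes and the gut lumen, 15 rose and 2 fell, with a median of 0.41. VhaM9.7-b rose 1.38-fold (adjusted p = 0.000705) and Vha100-4 1.77-fold (adjusted p = 0.00235), while Vha100-1 fell by 0.27 on the log2 scale (adjusted p = 0.0012), a call that ended under quantile normalization and with equal column sums.

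Among insulin, AKH and FOXO genes 7 of 19 fell and 4 rose, with a median of 0.07. Under quantile normalization and with equal column sums 7 were called higher and 7 lower. Ilp2, an insulin-like peptide of the brain's insulin-producing cells, had 13.7, 15.9, 13.9 and 14.4 at HSD 16 h, against 21.4, 17.3, 27.1 and 17.8 on LSD (log2 -0.50, adjusted p = 0.00512). Ilp5, made by the same cells, had 0.140, 0.211, 0.0455 and 0.147 at HSD 16 h, against 1.05, 1.36, 1.43 and 0.424 on LSD. Ilp6, made in the fat body, had 11.1, 8.58, 9.74 and 10.8 at HSD 16 h, against 14.1, 17.8, 16 and 17.8 on LSD. Ilp8, a peptide of the imaginal discs, had 0.466, 0.338, 0.455 and 0.733 at HSD 16 h, against 2.11, 3.12, 1.48 and 2.42 on LSD. All 4 fell without overlap between the groups, although Ilp5 lay near the level of 3 reads at HSD 16 h. For Ilp5 and Ilp8 the LSD values alone were enough to enter the test, so the count of falls describes the tested genes. The secreted insulin antagonist ImpL2 fell to 132, 139, 119 and 156, against 308, 293, 319 and 302 on LSD (log2 -1.17, adjusted p = 0.000124). Convoluted (conv), known to act with ImpL2 in the blood, had 28.5, 29.2, 26.7 and 28.1 at HSD 16 h, against 50.8, 65.9, 61.8 and 52.2 on LSD (log2 -1.01, SE 0.10, adjusted p = 1.11e-05), and upd2, a fat-body signal to the insulin cells, fell (log2 -1.50). The receptor of the glucagon-like hormone AKH went the other way: AkhR had 34.5, 34.5, 34.7 and 32.5 at HSD 16 h, against 8.83, 16.9, 11.97 and 11.8 on LSD, and rose 2.75-fold (log2 1.46, SE 0.15, adjusted p = 1.58e-05). CCHamide-2 (CCHa2), a nutrient signal that promotes insulin release, had 81.7, 71.7, 78.8 and 77.8 at HSD 16 h, against 33.1, 49.4, 32.3 and 28.3 on LSD, and rose 2.20-fold (log2 1.14, SE 0.14, adjusted p = 7.7e-05). Thor, the translation repressor 4E-BP and a target of FOXO, had 252, 231, 201 and 288 at HSD 16 h, against 144, 139.6, 118 and 274 on LSD, and was not called (adjusted p = 0.0576).

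Of 21 peptide hormones of gut and brain 4 rose and 3 fell, with a median of 0.07. These shares were close to or below those of all tested genes, of which 19.5% rose and 20.5% fell. Tachykinin (Tk) had 19.1, 18.97, 18.6 and 19.6 at HSD 16 h, against 9.34, 12.2, 10.5 and 11.02 on LSD (log2 0.80, SE 0.07, adjusted p = 6.21e-06). The diuretic hormone Dh44 had 15.98, 17.5, 17.02 and 17.1 at HSD 16 h, against 25.7, 21.6, 21.4 and 21.1 on LSD (log2 -0.40, SE 0.07, adjusted p = 0.00103). Of 16 TOR and growth regulators 4 rose and 0 fell, with a median of 0.05. The calls of gig (log2 0.27, adjusted p = 0.0133), Mnt (log2 0.31, adjusted p = 0.0186) and slif (log2 0.38, adjusted p = 0.0206) ended under 2 to 4 alternatives each, and 1 gene of the list was called without the 3 cuticle-rich libraries. Of 20 autophagy genes 6 rose and 0 fell, with a median of 0.10, led by the cargo receptor ref(2)P (log2 0.53, SE 0.10, adjusted p = 0.00144), Atg7 (log2 0.41, SE 0.09, adjusted p = 0.0024) and Atg14 (log2 0.26, adjusted p = 0.0201), and leaving out HSD 16 h replicate 2 or LSD replicate 3 lowered that count to 2, while equal column sums raised it to 11.

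The digestive enzymes split by class. Of 28 gut serine proteases 21 rose and 0 fell, with a median log2 difference of 1.04. The trypsin thetaTry had 87.9, 85.8, 75.3 and 93.7 at HSD 16 h, against 10.9, 21.1, 4.61 and 8.48 on LSD. Another trypsin, alphaTry, had 231, 233, 197 and 262 at HSD 16 h, against 46.3, 73.7, 34.5 and 65.9 on LSD. A further one, deltaTry, had 99.5, 104, 86.1 and 94.97 at HSD 16 h, against 52.3, 53.8, 47.6 and 40.04 on LSD. The chymotrypsin-like yip7 had 1315, 1327, 1064 and 1360 at HSD 16 h, against 411, 525, 376 and 424 on LSD. All HSD 16 h libraries lay above all LSD libraries for these 4 genes, which rose 8.33-fold (adjusted p = 8.1e-05), 4.31-fold (adjusted p = 6.77e-05), 1.98-fold (adjusted p = 9.99e-06) and 2.92-fold (adjusted p = 3.11e-05). Digestive lysozymes, which break bacterial cell walls in the food, had 4 of 5 genes higher, with a median of 0.99. LysC, 1 of these 4, is a pseudogene in the reference annotation and overlaps LysD on the opposite strand. LysS had 184, 150.4, 132 and 194 at HSD 16 h, against 66.7, 111, 60.1 and 104 on LSD (log2 0.98, SE 0.23, adjusted p = 0.00482). LysC, LysD and LysE rose by log2 differences of 0.99 to 1.08, but without HSD 16 h replicate 1, 2 or 4 or LSD replicate 1 or 3 the count of lysozymes called was 1. Near-identical copies of trypsins, lysozymes and amylases can share reads, which makes the level of a single copy uncertain.

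Starch and sugar digestion went both ways. Of 13 maltases and amylases 4 rose and 5 fell, with a median of -0.13, which turned positive without LSD replicate 2 or 4, and log2 differences from -4.70 to 2.80. The maltases, which can split sucrose, included Mal-A1 with 535, 502, 509.8 and 665 at HSD 16 h, against 76.5, 163, 43.2 and 124 on LSD. Mal-A6 had 253, 253, 231 and 337 at HSD 16 h, against 31.4, 59.8, 19.6 and 54.9 on LSD. Mal-A8 had 116, 120.4, 120.5 and 139.8 at HSD 16 h, against 18.5, 28.4, 9.80 and 23.1 on LSD. They rose 6.05-fold (adjusted p = 0.00029), 6.95-fold (adjusted p = 9.74e-05) and 6.52-fold (log2 2.70, SE 0.32, adjusted p = 4.49e-05), and Mal-A7 rose too (log2 2.46). The amylases, which digest starch, fell to low levels. Amy-p had 0.978, 0.887, 0.683 and 3.52 at HSD 16 h, against 44.4, 53.2, 25.9 and 69.1 on LSD (log2 -4.70, SE 0.39, adjusted p = 3.18e-06). Amy-d had 0.373, 0.254, 0.0455 and 1.56 at HSD 16 h, against 17.6, 27.98, 10.8 and 30.5 on LSD (log2 -4.47, SE 0.41, adjusted p = 6.97e-06). Amyrel had 1.44, 1.44, 3.23 and 3.57 at HSD 16 h, against 19.7, 30.9, 6.89 and 43 on LSD (log2 -2.95, adjusted p = 0.000645). HSD 16 h replicate 4 was the highest of its group for all 3, and still lay below every LSD library. For Amy-p and Amy-d the LSD values alone were enough to enter the test, so the count of falls describes the tested genes. With 1 or more required in at least 7 of the 8 libraries, neither of these was tested. Mal-B1 and Mal-B2 fell as well (log2 -1.06 and -0.38).

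Gut lipases held the largest falls of the comparison. CG6283 had 0.838, 0.380, 1.27 and 1.03 at HSD 16 h, against 60.2, 81.9, 18.7 and 89.7 on LSD (log2 -5.34, SE 0.41, adjusted p = 1.73e-06). CG6271 had 0.140, 0.380, 0.319 and 0.635 at HSD 16 h, against 20.7, 24.8, 11.8 and 37.5 on LSD (log2 -4.72, SE 0.38, adjusted p = 2.43e-06). CG8093 had 0.186, 0.211, 0.182 and 0.733 at HSD 16 h, against 11.1, 22.8, 5.77 and 42.3 on LSD (log2 -4.36, SE 0.55, adjusted p = 6.9e-05). For all 3 genes every HSD 16 h library lay far below every LSD library. In all, 6 of 9 tested gut lipases fell, with a list median of -2.15 (-5.41 to -0.30 over the alternatives), and CG6295 rose (log2 1.38, adjusted p = 0.0232), with 84.6, 56.02, 91.96 and 83.97 at HSD 16 h, against 33.5, 56.3, 10.4 and 38.2 on LSD, where LSD replicate 2 overlapped. Their LSD values alone were enough for genes such as these to enter the test, so the count of falls describes the tested genes and not the whole family: with 1 or more required in at least 7 of the 8 libraries, 1 lipase was left as called lower and the median was -0.30. CG6283 and CG6271 overlap RYa-R on the opposite strand in the reference annotation.

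**Figure D3:**
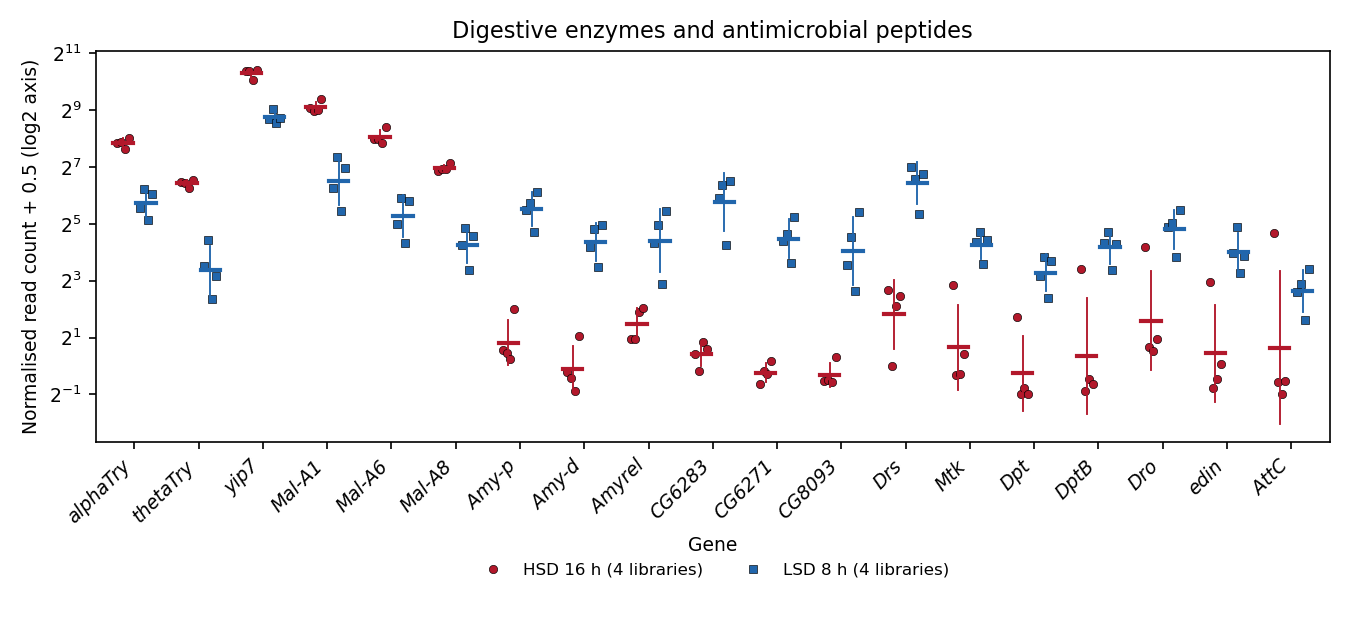
Normalised read count + 0.5 (log2 axis) of 12 digestive enzyme genes and 7 antimicrobial peptide genes, HSD 16 h in red and LSD 8 h in blue, with 1 point per library, a bar at the mean and a line of ± 1 SD of the log2 values. Trypsins and maltases are higher at HSD 16 h, amylases and lipases lower, and HSD 16 h replicate 1 is the high red point of the peptides Mtk, Dpt, DptB, Dro, edin and AttC.

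Antimicrobial peptide genes, which the fat body and gut induce through the Toll and IMD pathways, were low at HSD 16 h. Of 8 tested genes, from 9 in the table, 6 fell and 0 rose, with a median of -3.55. Drosomycin (Drs), an antifungal peptide, had 5.82, 0.507, 3.82 and 5.03 at HSD 16 h, against 129, 95.8, 40.1 and 108 on LSD (log2 -4.61, SE 0.54, adjusted p = 3.82e-05), and every HSD 16 h library was below every LSD library. Metchnikowin (Mtk) had 6.66, 0.296, 0.319 and 0.831 at HSD 16 h, against 19.8, 25.5, 11.4 and 21.02 on LSD (log2 -3.60, SE 0.69, adjusted p = 0.00135). The peptide gene edin had 7.17, 0.0845, 0.228 and 0.538 at HSD 16 h, against 15.2, 29.4, 9.11 and 14.3 on LSD (log2 -3.57, SE 0.84, adjusted p = 0.00495). DptB, a diptericin, had 10.1, 0.0423, 0.228 and 0.147 at HSD 16 h, against 19.6, 25.6, 9.80 and 19.3 on LSD (log2 -3.82, adjusted p = 0.00652). HSD 16 h replicate 1 stood apart for these 3 genes, at 6.66, 7.17 and 10.06, and for DptB it lay just above LSD replicate 3. Drosocin (Dro) and Dpt fell as well (log2 -3.22 and -3.54). AttC, an attacin, had 25.01, 0.169, 0 and 0.196 at HSD 16 h, against 5.59, 6.88, 2.60 and 10.1 on LSD, so that replicate 1 was above all LSD libraries while the other 3 were below them, and it was not called (adjusted p = 0.196). Without HSD 16 h replicate 1, 7 of 8 genes were called lower with a median of -4.265. Without the 3 cuticle-rich libraries 2 of 8 were called lower with a median of -3.34, and edin was not (adjusted p = 0.0625). For Mtk, edin and DptB the LSD values alone were enough to enter the test, so the count of falls describes the tested genes. With 1 or more required in at least 7 of the 8 libraries, 2 peptides were called lower (median -3.915). With edgeR 4 were called lower (median -2.93).

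Of 9 tested peptidoglycan recognition proteins, sensors and regulators of the same pathways, 5 fell and 3 rose, with a median of -0.57. PGRP-LA had 29.6, 22.1, 19.4 and 25.9 at HSD 16 h, against 63.2, 85.6, 90.8 and 58.9 on LSD (log2 -1.59, SE 0.17, adjusted p = 1.79e-05). PGRP-SD, a Toll pathway sensor, had 1.58, 0.972, 1.14 and 1.03 at HSD 16 h, against 5.35, 6.78, 3.02 and 6.60 on LSD (log2 -1.78, SE 0.28, adjusted p = 0.000335). PGRP-LC, the IMD receptor, had 29.6, 27.8, 28.7 and 26.98 at HSD 16 h, against 34.6, 36.6, 36.4 and 36.2 on LSD (log2 -0.34, SE 0.06, adjusted p = 0.000755). None of these overlapped between the groups. PGRP-LB, an amidase that dampens the IMD pathway, rose (log2 0.48, adjusted p = 0.00541). SPH93, a serine protease homologue, fell to 2.84, 0.169, 0.228 and 0.196, against 9.22, 18.2, 25.4 and 26.9 on LSD (log2 -4.20, SE 0.59, adjusted p = 0.000147), with replicate 1 again the high library of HSD 16 h. Of 14 hemocyte and basement membrane markers, with a median of 0.22, 1, the phagocytic receptor eater, rose (log2 0.94, SE 0.30, adjusted p = 0.0255) and 0 fell, and the call of eater ended without HSD 16 h replicate 1 or LSD replicate 1 or 2. The summed level of these markers was 5866 to 6322 at HSD 16 h and 4268 to 8696 on LSD. The part of blood cell number in the fall of immune genes was not tested.

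Protein turnover genes changed by small amounts and in large numbers. All 31 measured proteasome subunits fell, with log2 differences of -0.20 to -0.55 and a median of -0.40. The ubiquitin receptor Rpn10 had 106, 103, 95.1 and 101 at HSD 16 h, against 147, 152, 150.3 and 143 on LSD (log2 -0.55, SE 0.05, adjusted p = 9.97e-06). The base ATPase Rpt2 had 131, 125, 118 and 120.4 at HSD 16 h, against 169, 175, 179 and 173 on LSD (log2 -0.49, SE 0.05, adjusted p = 1.63e-05). The scaffold Rpn2 had 169, 169.7, 162 and 166 at HSD 16 h, against 230.4, 244, 226 and 233 on LSD (log2 -0.48, SE 0.05, adjusted p = 1.64e-05). The 4 libraries of each group lay close together and apart from the other group for 30 of the 31 subunits. Over the alternatives 26 to 31 subunits were called lower and 0 higher, and the median was -0.26 under quantile normalization and -0.27 with equal column sums. Of 18 cytoplasmic aminoacyl-tRNA synthetases 17 fell and 0 rose, with a median of -0.31, among them GluProRS (log2 -0.61, SE 0.06, adjusted p = 1.25e-05), MetRS (log2 -0.50, SE 0.05, adjusted p = 1.81e-05) and ValRS (log2 -0.54, SE 0.06, adjusted p = 3.31e-05), and 11 were called lower and 1 higher under quantile normalization. Of 32 translation factors 17 fell and 0 rose, with a median of -0.17, among them eIF-1A (log2 -0.40, SE 0.05, adjusted p = 6.5e-05), eIF5 (log2 -0.43, SE 0.06, adjusted p = 0.000221) and eIF6 (log2 -0.42, SE 0.07, adjusted p = 0.000447). Quantile normalization left 11 called lower and 1 higher, and equal column sums left 8 and 1.

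The ribosome biogenesis list still had a median below LSD at 16 h, though by less than at 8 h. The groups overlapped in its summed level, which was 2021 to 2421 at HSD 16 h and 2176 to 2845 on LSD. Of its 21 genes 4 were lower without overlap between the libraries, where 18.1% of all tested genes were. Of 21 snoRNP and nucleolar genes 14 fell and 1 rose, with a median of -0.30. CG7637 (Nop10), a core protein of the snoRNPs that modify ribosomal RNA, had 15.7, 17.4, 16.8 and 17.4 at HSD 16 h, against 29.7, 25.9, 31.6 and 20.8 on LSD (log2 -0.65, SE 0.11, adjusted p = 0.000662), and peng fell (log2 -0.43, SE 0.08, adjusted p = 0.00163). The GTPase gene Non1 went the other way, with 472, 469, 532 and 513 at HSD 16 h, against 320.1, 384, 302 and 388 on LSD (log2 0.52, SE 0.08, adjusted p = 0.000418). The number called lower was 2 without the 3 cuticle-rich libraries, 7 under quantile normalization, 8 with equal column sums and 9 without HSD 16 h replicate 1 or 4 or LSD replicate 1 or 2. In the RNA polymerase I and III list 4 of 10 fell and 0 rose, with a median of -0.22, including l(2)37Cg (adjusted p = 0.00529), CG3756 (adjusted p = 0.006) and RpI135 (adjusted p = 0.0272), and 0 of 10 were called without the 3 cuticle-rich libraries. Of the cytoplasmic ribosomal proteins 2 of 87 rose and 11 fell, with a median of -0.04, and the balance of calls depended on the scaling: 10 were called higher and 7 lower under quantile normalization (median 0.02), and 27 higher and 4 lower with equal column sums (median 0.08). Without the 3 cuticle-rich libraries 2 were called higher and 3 lower. RpL39 (log2 -0.41, SE 0.08, adjusted p = 0.00153), RpL29 (log2 -0.32, SE 0.07, adjusted p = 0.00456) and RpL28 (log2 -0.32, SE 0.08, adjusted p = 0.00494) were among those that fell, and the calls of RpL39 and RpL29 ended under quantile normalization (adjusted p = 0.0801 and 0.0517). Of 74 mitochondrial ribosomal proteins 15 rose, a share close to the 19.5% of all genes, and 0 fell, with a median of 0.10. Among those that rose were mRpL43 (log2 0.39, SE 0.05, adjusted p = 4.8e-05), mRpL35 (log2 0.40, SE 0.05, adjusted p = 7.93e-05) and mRpS26 (log2 0.25, SE 0.04, adjusted p = 0.000822). The count moved widely with the processing: 46 were called higher with equal column sums (median 0.22), 32 without LSD replicate 3, 26 without the 3 cuticle-rich libraries, 25 under quantile normalization and 9 without HSD 16 h replicate 1 or 3 or LSD replicate 4. In the last of these 3 were called lower.

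Cuticle and molting genes were low at HSD 16 h. Of 91 tested cuticle protein genes, from 94 in the table, 46 fell and 6 rose, with a median of -1.66. TwdlT, a Tweedle cuticle protein, had 52.6, 67, 39.4 and 69.8 at HSD 16 h, against 255, 324, 315 and 219 on LSD (log2 -2.29, SE 0.19, adjusted p = 2.74e-06). Cpr65Eb, a chitin-binding cuticle protein, had 36.5, 37.7, 16.4 and 34.1 at HSD 16 h, against 152, 165, 194 and 132 on LSD (log2 -2.41, SE 0.23, adjusted p = 9.97e-06). TwdlZ fell too (log2 -2.29, SE 0.22, adjusted p = 1.02e-05). All 15 tested genes of the Osiris family, membrane proteins of cuticle-forming epithelia, fell, from 17 in the table. Osi9 had 317, 300, 196 and 306 at HSD 16 h, against 1162, 1536, 1640 and 931 on LSD (log2 -2.22, SE 0.20, adjusted p = 6.74e-06). Osi14 had 285, 290.1, 148 and 290.2 at HSD 16 h, against 1168, 1596, 1480 and 937 on LSD (log2 -2.37, SE 0.23, adjusted p = 9.84e-06). Osi19 had 231, 185, 153 and 256 at HSD 16 h, against 887, 1281, 1238 and 788 on LSD (log2 -2.34, SE 0.21, adjusted p = 5e-06). Each group kept to its own range, and HSD 16 h replicate 3 was the lowest HSD 16 h library for all 3. Of 24 chitin genes 15 fell and 1 rose, with a median of -0.82. The chitin synthase kkv had 173, 202, 114 and 157 at HSD 16 h, against 441, 511, 613 and 456 on LSD (log2 -1.66, SE 0.16, adjusted p = 1.01e-05). The chitinase Cht7 had 137, 198, 129 and 163 at HSD 16 h, against 496, 771, 758 and 471 on LSD (log2 -1.97, SE 0.19, adjusted p = 9.39e-06). Without the 3 cuticle-rich libraries 38 cuticle, 15 Osiris and 14 chitin genes were called lower, with medians of -1.48, -2.08 and -0.69.

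Not every cuticle gene fell. Lcp3 and Lcp4, larval cuticle proteins, rose (log2 2.24 and 1.51); Lcp4 had 54.9, 62.6, 80.4 and 66.96 at HSD 16 h, against 23.9, 18.04, 23.9 and 25.6 on LSD. TwdlO had 38.3, 31.3, 74.2 and 54.3 at HSD 16 h, against 14.6, 1.26, 4.50 and 25.98 on LSD, a rise without overlap (log2 2.62, adjusted p = 0.0358). The neuropeptide-like Nplp4 had 76.3, 88.9, 184 and 99.5 at HSD 16 h, against 19.8, 6.18, 12.8 and 19.9 on LSD (log2 2.94, adjusted p = 0.000187), and replicate 3 was the highest HSD 16 h library. TwdlJ was not called (adjusted p = 0.159), and 1 HSD 16 h library and 2 LSD libraries held nearly all of it.

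**Figure D4:**
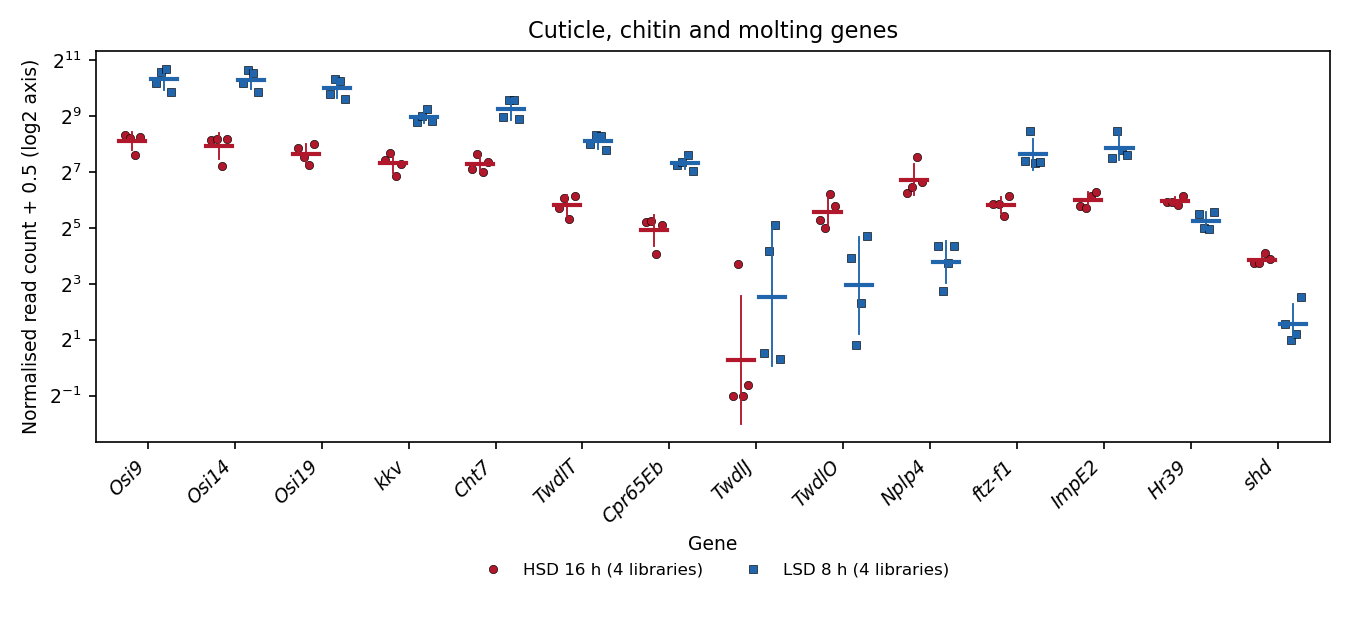
Normalised read count + 0.5 (log2 axis) of 14 cuticle, chitin and molting genes, HSD 16 h in red and LSD 8 h in blue, with 1 point per library, a bar at the mean and a line of ± 1 SD of the log2 values. The Osiris, chitin and most cuticle genes are lower at HSD 16 h, TwdlO, Nplp4 and shd are higher, and TwdlJ is split between libraries within each group.

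Of 23 genes of ecdysone synthesis and response 8 fell and 4 rose, with a median of -0.10 that became 0.02 with equal column sums, and 1 was called higher without the 3 cuticle-rich libraries. The competence factor ftz-f1, which acts between hormone pulses, had 57.5, 57.96, 42.6 and 70.6 at HSD 16 h, against 166, 356, 160.3 and 166 on LSD (log2 -1.81, SE 0.30, adjusted p = 0.000468). ImpE2, an ecdysone-induced gene of epithelia, had 54.5, 52.3, 70.3 and 78.3 at HSD 16 h, against 182, 352, 224 and 194 on LSD (log2 -1.86, SE 0.25, adjusted p = 0.000116). The early response gene Eip74EF (log2 -1.56), the epithelial genes ImpE1 (log2 -2.30) and ImpL1 (log2 -1.63) and the ecdysone-degrading Cyp18a1 (log2 -1.71) fell as well. Shade (shd), the last enzyme of ecdysone activation, had 12.8, 12.8, 16.6 and 14.4 at HSD 16 h, against 2.46, 1.51, 1.80 and 5.33 on LSD, and rose 4.87-fold (log2 2.28, SE 0.29, adjusted p = 7.84e-05). The receptor genes were not both called: EcR had a log2 difference of -0.10 and usp fell by 0.26 on the log2 scale. In the juvenile hormone list of 7 genes, with a median of 0.26, the epoxide hydrolase Jheh1 (log2 0.65, SE 0.11, adjusted p = 0.000648) and the response factor Kr-h1 (log2 0.76, SE 0.25, adjusted p = 0.0262) rose and the receptor gce fell (log2 -0.19, adjusted p = 0.0391). The calls of Kr-h1 and gce ended when single libraries were left out, such as HSD 16 h replicate 1 or 4.

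Amino acid and one-carbon enzymes fell in part. Sarcosine dehydrogenase (Sardh) had 1.86, 2.37, 2.87 and 2.20 at HSD 16 h, against 43.1, 67.6, 40.5 and 49 on LSD, a fall of 17.7-fold (log2 -4.14, SE 0.19, adjusted p = 1.58e-08). Glycine N-methyltransferase (Gnmt), which makes sarcosine, had 78.9, 52.01, 81.8 and 47.4 at HSD 16 h, against 235, 294, 228 and 268 on LSD, a fall of 4.01-fold (adjusted p = 9.88e-06). Urate oxidase (Uro), the purine-degrading enzyme of the Malpighian tubules, had 2.42, 4.06, 3.91 and 2.83 at HSD 16 h, against 73.1, 58.6, 41.2 and 57.5 on LSD (log2 -3.93, SE 0.28, adjusted p = 7.73e-07). The groups were far apart in these 3 genes. Of 18 amino acid catabolism genes 7 fell and 4 rose, with a median of -0.16 that turned positive under quantile normalization. Vermilion (v), the first enzyme of tryptophan breakdown, fell (adjusted p = 1.54e-05), as did ornithine aminotransferase (Oat; log2 -0.78, SE 0.12, adjusted p = 0.000279). In the list of serine, one-carbon and glutamine synthesis 6 of 16 rose and 5 fell, with a median of 0.14 that became -0.02 without the 3 cuticle-rich libraries. Glutamine synthetase 1 (Gs1) had 529, 492, 461 and 469 at HSD 16 h, against 261, 304, 292 and 279 on LSD (log2 0.78, SE 0.07, adjusted p = 3.44e-06), while Ahcy13, which clears S-adenosylhomocysteine, fell (log2 -0.69, SE 0.06, adjusted p = 2.26e-06).

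Detoxification genes changed in both directions. Of 67 cytochrome P450 genes 27 rose and 15 fell, with a median of 0.23. Of 50 glutathione and glucuronosyl transferases 28 rose and 5 fell, with a median of 0.53. Of all tested genes 19.5% rose and 20.5% fell. GstD7 had 184, 192, 150.4 and 164 at HSD 16 h, against 53.1, 58.1, 48.1 and 52.03 on LSD (log2 1.70, SE 0.08, adjusted p = 1.97e-08), and GstE7 and GstE9 rose 2.86-fold (adjusted p = 4.19e-07) and 3.76-fold (adjusted p = 9.68e-07). The P450 gene Cyp9b2 rose 4.33-fold (log2 2.12, SE 0.20, adjusted p = 7.87e-06) and Cyp310a1 3.35-fold (log2 1.74, SE 0.14, adjusted p = 2.23e-06), whereas Cyp28d1 fell 4.64-fold (log2 -2.21, SE 0.17, adjusted p = 1.36e-06). Among 8 Npc2 genes, relatives of a sterol carrier, Npc2d rose (log2 2.61, SE 0.40, adjusted p = 0.0003) and Npc2b (log2 -0.86, SE 0.13, adjusted p = 0.000212) and Npc2h (log2 -0.52, SE 0.09, adjusted p = 0.000631) fell. In all 3 rose and 5 fell, with a median of -0.45. Of 20 tested odorant-binding proteins 6 fell and 3 rose, with a median of -0.22, and 3 were called lower without the 3 cuticle-rich libraries. Obp99a had 33.4, 37.6, 30.5 and 34.02 at HSD 16 h, against 163, 141, 173 and 134 on LSD, a fall of 4.45-fold (log2 -2.15, SE 0.19, adjusted p = 4.58e-06), Obp99c fell 2.51-fold (log2 -1.33, SE 0.08, adjusted p = 1.22e-07), and Obp44a rose (log2 0.75, SE 0.08, adjusted p = 1.56e-05). Of 14 heat shock genes 2 rose and 1 fell, with a median of -0.08: Hsp60 (log2 0.32, SE 0.07, adjusted p = 0.00219), Hsc70-5 (log2 0.27, adjusted p = 0.0362) and Hsp67Ba (log2 -0.50, adjusted p = 0.0195), of which Hsp60 alone held under every alternative.

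Many of the largest rises were in genes known by their number. CG1774 had 744, 745, 736 and 732 at HSD 16 h, against 33.9, 43.6, 25.2 and 36.6 on LSD, a rise of 21.3-fold (log2 4.42, SE 0.12, adjusted p = 1.34e-10). CR45190 (asRNA:CR45190), annotated as an RNA antisense to CG1635, had 16.6, 14.1, 15.7 and 16.2 at HSD 16 h, against 0.156, 0.301, 0 and 0.363 on LSD (log2 4.54, SE 0.19, adjusted p = 6.97e-09). On LSD it was at the level of a few reads, and CG1635 itself had 64.1, 59.95, 54.97 and 59.7 at HSD 16 h, against 57.7, 52.3, 72.7 and 64.7 on LSD and was not called. CG5724 (Ugt37A2), a glucuronosyltransferase, had 74.3, 63.5, 73.99 and 89.4 at HSD 16 h, against 1.99, 5.63, 1.75 and 5.21 on LSD, a rise of 20.1-fold. CG15597 had 34.4, 46.98, 128 and 49.4 at HSD 16 h, against 2.66, 0.402, 2.97 and 6.36 on LSD, with replicate 3 the highest. The list of 15 largest rises also held CG12057, CG14205, CG15534, CG4269, CG32444, CG7142, CG10182 and CG11852 (Jhbp7), besides FASN1, sug and thetaTry, with log2 differences from 3.01 to 3.98 in these 8. The call of CG11852 ended without the 3 cuticle-rich libraries (adjusted p = 0.0678). Among the 15 largest falls besides genes already named, CG34166 had 44.8, 57.2, 44 and 43.5 at HSD 16 h, against 872, 900, 915 and 940.1 on LSD (log2 -4.25, SE 0.11, adjusted p = 1.34e-10), and CG15369, CG43153 and CG17362 had log2 differences of -3.95, -3.94 and -3.77.

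The level at 16 h was set against that at 8 h on the same diet, a test of the difference between the 2 times. Of 10039 genes 2968 (29.6%) were called, 1425 (14.2%) higher and 1543 (15.4%) lower at HSD 16 h than at HSD 8 h. Large changes were nearly all falls: 495 genes (4.93%) fell and 53 (0.528%) rose at least 2-fold, and 176 (1.75%) fell and 6 (0.0598%) rose at least 4-fold. Of the 1957 genes that were higher at HSD 16 h than on LSD, 413 (21.1%) were also higher than at HSD 8 h, 70 (3.58%) were lower and 1474 (75.3%) were not called. Of the 2054 genes that were lower than on LSD, 1025 (49.9%) were also lower than at HSD 8 h, 214 (10.4%) were higher and 815 (39.7%) were not called. Both comparisons use the same HSD 16 h libraries, so these shares are descriptions. Leaving out HSD 8 h replicate 2 lowered the number called higher to 913. Quantile normalization gave 2464 higher and 1106 lower, and equal column sums gave 3016 higher and 1021 lower.

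Most genes of sugar sensing and lipid synthesis had about the same level at HSD 16 h as at HSD 8 h. The sugarbabe gene sug had 122, 114, 119.6 and 120.5 at HSD 16 h, against 93.1, 114 and 95.7 at HSD 8 h (log2 0.24, adjusted p = 0.0832). FASN1 had 3985, 4000, 4740 and 4359 at HSD 16 h, against 5044, 4136 and 4425 at HSD 8 h (log2 -0.09, adjusted p = 0.715). The differences of cbt (log2 0.01), Mondo (log2 0.0049) and daw (log2 -0.02) were within the spread between libraries. Of 18 fatty acid and triglyceride synthesis genes 0 were higher and 3 lower, and with equal column sums 3 were higher and 1 lower. Exceptions were Jabba (log2 0.64, adjusted p = 0.000452), Gpo-1 (log2 0.37, adjusted p = 0.0026) and SCAP (log2 0.44, adjusted p = 0.0049), which were higher at 16 h. Thor, which was not called against LSD, was lower at 16 h than at 8 h, with 252, 231, 201 and 288 at HSD 16 h, against 479, 597 and 403 at HSD 8 h (log2 -1.01, adjusted p = 0.00967).

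Genes of ribosome production and DNA replication were higher at HSD 16 h than at HSD 8 h. In ribosome biogenesis 20 of 21 genes were higher and 0 lower, with a median of 0.51, and in the RNA polymerase I and III list 7 of 10 were higher. Nop60B, a pseudouridine synthase of the nucleolus, had 206, 239, 261 and 231 at HSD 16 h, against 148, 176 and 143 at HSD 8 h (log2 0.59, SE 0.11, adjusted p = 0.00279). Of 27 DNA replication and cell cycle genes 22 were higher than at 8 h and 0 lower, with a median of 0.47, while against LSD 3 were higher and 1 lower with a median of 0.04, and 8 were higher with equal column sums. The cyclin gene CycE had 16.4, 16.3, 17.8 and 18.1 at HSD 16 h, against 11.02, 11.2 and 10.4 at HSD 8 h (log2 0.63, SE 0.08, adjusted p = 0.000253), and it was also above LSD (log2 0.28, SE 0.07, adjusted p = 0.00755). Against LSD the mitotic kinase polo fell (log2 -0.45), and CycB, a mitotic cyclin, rose (log2 0.41, adjusted p = 0.0185). The call of CycB ended without HSD 16 h replicate 2 or 3, LSD replicate 4 or the 3 cuticle-rich libraries (adjusted p up to 0.153). The ribonucleotide reductase gene RnrL had 59.01, 61.7, 66.8 and 62.3 at HSD 16 h, against 40.3, 43.01 and 39.3 at HSD 8 h (log2 0.60, adjusted p = 0.000368). Of 74 mitochondrial ribosomal proteins 36 were higher and 0 lower, a count that was 13 without HSD 8 h replicate 2 and 66 with equal column sums.

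**Figure D5:**
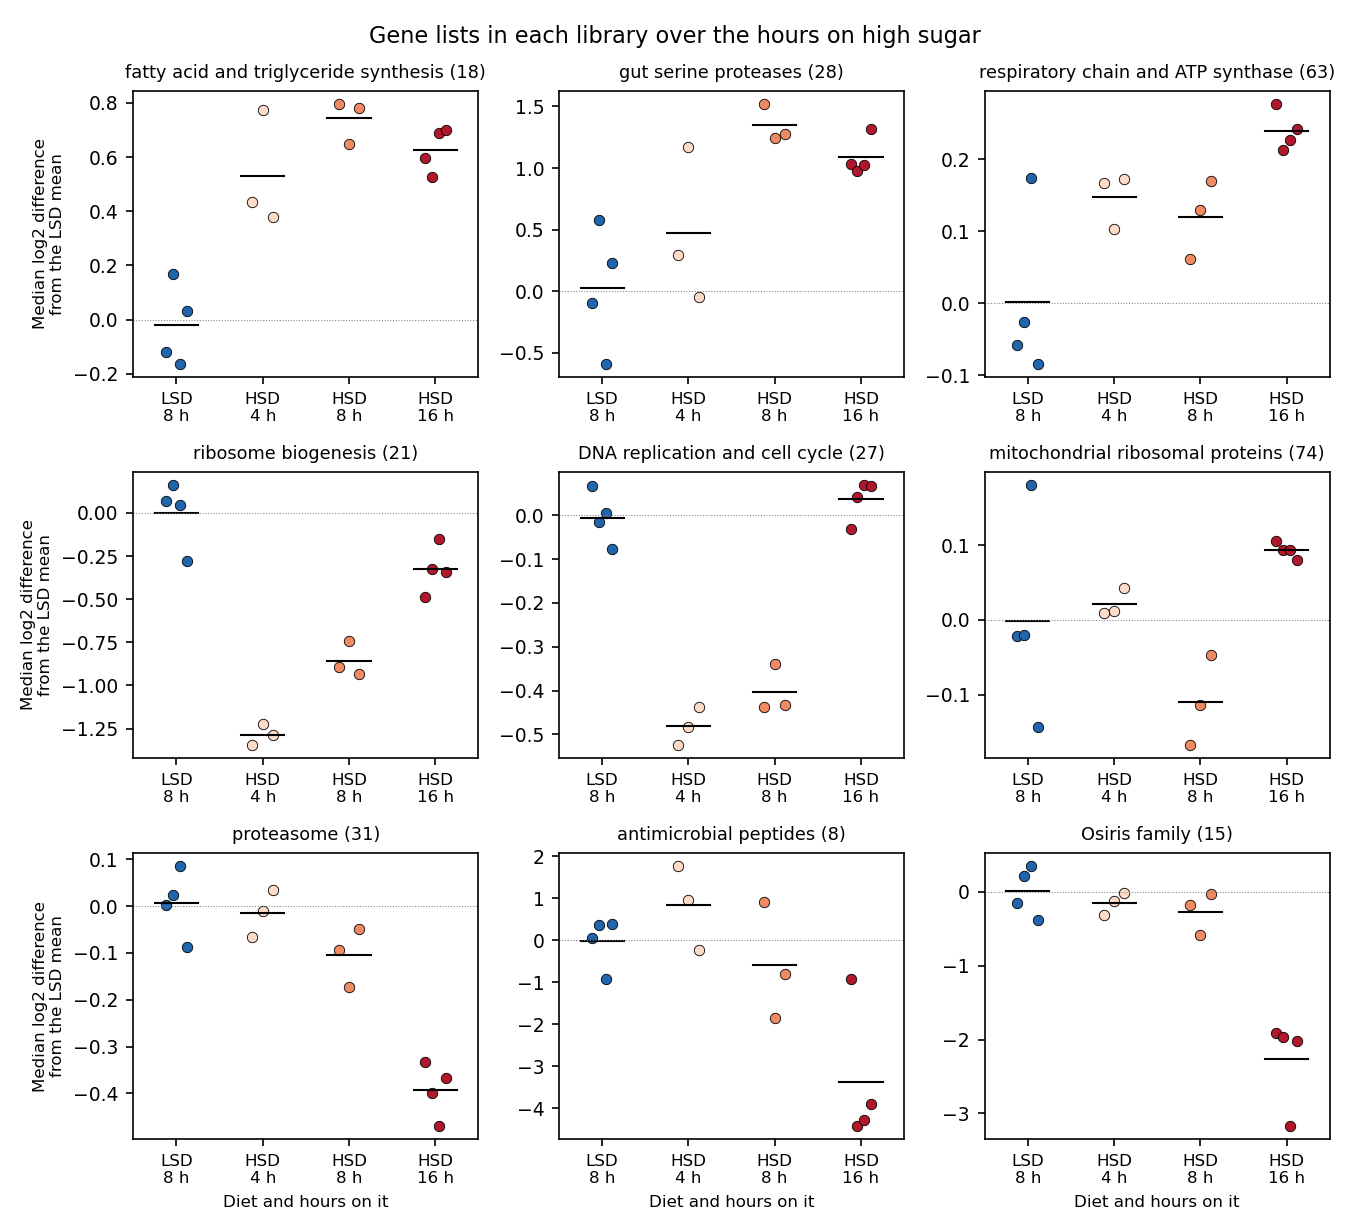
Median log2 difference from the LSD mean over the members of 9 gene lists (number of genes in brackets), with 1 point per library and a bar at the group mean, on LSD at 8 h and on HSD at 4, 8 and 16 h. Ribosome biogenesis and DNA replication lie lowest at 4 h, with medians of -1.35 to -1.23 and -0.52 to -0.44 there, and highest of the HSD times at 16 h, while proteasome, antimicrobial peptide and Osiris genes have their lowest group mean at 16 h.

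Other groups were lower at HSD 16 h than at HSD 8 h. Of 31 proteasome subunits 29 were lower, with a median of -0.30, but 5 were called lower under quantile normalization and 16 with equal column sums. Of 15 Osiris genes 13 were lower, of 91 cuticle genes 53 were lower and 4 higher, and of 24 chitin genes 15 were lower. Of 16 fatty acid oxidation genes 10 were lower and 2 higher, though 4 were called lower under quantile normalization. Amylases, 5 gut lipases and 5 antimicrobial peptides were lower, though 1 antimicrobial peptide was called lower without HSD 8 h replicate 2 or without the 3 cuticle-rich libraries. Drs had 5.82, 0.507, 3.82 and 5.03 at HSD 16 h, against 144, 95.1 and 69.5 at HSD 8 h (log2 -4.82, SE 0.58, adjusted p = 0.000232), while its HSD 8 h values overlapped those on LSD. Amy-p had 44.4, 53.2, 25.9 and 69.1 on LSD and, on HSD, 55.7, 45.5 and 28.96 at 4 h, 16.6, 9.82 and 9.91 at 8 h and 0.978, 0.887, 0.683 and 3.52 at 16 h, and it was lower at 16 h than at 8 h (log2 -2.79, SE 0.42, adjusted p = 0.000709).

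The 8 largest falls from 8 to 16 h were, besides Drs, CG14564, CG32266, TwdlJ, CG13051, CG4229, CG13068 and CG12971, with log2 differences of -5.20 to -4.37. Their levels were split between libraries: CG14564 had 0, 1.52, 0 and 0 at HSD 16 h, against 27.9, 40.8 and 14.4 at HSD 8 h. In HSD 16 h the cuticle-rich replicate 2 held most of each of these 7 genes. The calls of TwdlJ, CG13051 and CG13068 ended without HSD 8 h replicate 2 and with edgeR (adjusted p up to 0.102, 0.153 and 0.0991 over the alternatives). The 8 largest rises were CG15597, TwdlO, Nplp4, CG8012, CG15905, CG17974, CG32241 and CG10474. The calls of TwdlO and CG32241 ended when replicate 2 or 4 of HSD 8 h, or replicate 3 of HSD 16 h, was left out, and that of TwdlO also without HSD 16 h replicate 4 and with edgeR (adjusted p up to 0.117 for TwdlO and 0.105 for CG32241). Nplp4 had 76.3, 88.9, 184 and 99.5 at HSD 16 h, against 10.7, 32.1 and 12.1 at HSD 8 h (log2 2.67, SE 0.46, adjusted p = 0.00134), and CG15905 had 7.22, 7.05, 7.19 and 7.92, against 0.344, 2.02 and 0.939 (log2 2.43, SE 0.47, adjusted p = 0.00274). CG10474 was higher at HSD 16 h than at HSD 8 h (log2 1.87, SE 0.41, adjusted p = 0.00549) and close to its LSD level (log2 -0.04, adjusted p = 0.95).

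Markers of tissues served as a view of what the whole larvae held. Of 17 muscle genes 8 fell and 0 rose, with a median of -0.25. Under quantile normalization the median was -0.04, with 5 called lower and 1 higher, and with equal column sums it was -0.13, with 6 lower and 1 higher. TpnC73F had 386, 349, 358 and 367 at HSD 16 h, against 559, 631, 635 and 611 on LSD (log2 -0.74, SE 0.07, adjusted p = 6.27e-06), and Tm2 (log2 -0.46, SE 0.08, adjusted p = 0.000637) and up (log2 -0.37, SE 0.07, adjusted p = 0.00087) fell by less. Without the 3 cuticle-rich libraries 4 muscle genes were called lower, with a median of -0.11. Their summed level was 43497 to 46151 at HSD 16 h and 48974 to 58367 on LSD. Of 17 neuron markers, with a median of -0.12, 1 rose (Csp, log2 0.19, adjusted p = 0.0314) and 1 fell (Rdl, log2 -0.33, adjusted p = 0.0261), and both calls ended without HSD 16 h replicate 1 or 4 or LSD replicate 3, among other settings. Fat body markers were measured by 2 genes, with a median of 0.51 that was -0.34 when 1 or more was required in at least 7 of the 8 libraries: the storage protein Lsp1gamma had 2.33, 1.94, 0.819 and 1.66 at HSD 16 h, against 0.156, 0.352, 0.318 and 0.484 on LSD (log2 1.36, SE 0.39, adjusted p = 0.0149) and the lipoprotein Rfabg had a log2 difference of -0.34 and was not called. Of 3 salivary gland genes, with a median of 0.95, ng3 rose (log2 1.23, SE 0.35, adjusted p = 0.0146) from a low level, and the 1 measured testis gene was not called (log2 0.15).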

How the data were processed

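Total RNA of frozen whole larvae was depleted of ribosomal RNA and sequenced as stranded single-end 75 base reads with 2 technical replicates, per the labels' protocols. Per the submitters' processing notes, Trimmomatic, TopHat2 2.1.0, HTSeq and limma were used; no source used here gives the genome build, the annotation or whether counting used the strand. The deposited table holds 1 normalised signal value per gene and library, which the values show to be the read count scaled by a factor of each library. In the 14 columns 100% of values were whole multiples of what 1 read is worth (tolerance 0.01 read), so whole reads and depth could be recovered. Of 10128 genes, 10039 with a value of 1 or more in at least 3 of the 8 HSD 16 h and LSD libraries were tested, and 89 were left out. The other columns of the table, the authors' own coefficients and p-values, were not used.

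Log2(value + 0.5) was fitted with limma 3.58.1 in R 4.3.3 (variance trend, 14 libraries of 4 groups, 10 residual degrees of freedom), with Benjamini-Hochberg adjustment for each of 2 contrasts. The fit was tested on simulated data. edgeR 4.0.16 was run on the recovered reads as an alternative, beside other pseudocounts, filters, scalings, a replicate block, a stricter threshold, left-out libraries, and equal column sums, a scaling chosen after seeing the data. The 3 cuticle-rich libraries to leave out were picked by their values in these data. The members and the 49 gene lists (1133 entries; 1076 different genes in the table, 1065 of them tested) were chosen with earlier results of these data known. The rule for named genes took, for HSD 16 h against LSD, the 15 largest rises and 15 largest falls among called genes without overlap and with a mean of at least 5 in the higher group, all sugar regulators, and the 3 called members of each other list with the smallest adjusted p. For HSD 16 h against HSD 8 h it took the 8 largest rises and falls. Genes named beyond this were chosen after their values were seen: ACC, ATPCL, mdy, FASN2, FASN3, CG3812, Lpin, Baldspot, Hex-A, Pfk, Tpi, Gapdh1, Pglym78, Pfrx, ImpL3, Tps1, Treh, Tret1-1, bmm, Hsl, Lip3, Lip4, whd, Pdk, Idh, Ilp2, Ilp5, Ilp6, Ilp8, ImpL2, upd2, Thor, Mal-A1, Mal-A6, Mal-A7, Mal-B1, Mal-B2, Amyrel, CG6295, Dpt, DptB, Dro, AttC, PGRP-LB, LysD, Nop60B, Lcp3, Lcp4, Eip74EF, ImpE1, ImpL1, Cyp18a1, EcR, usp, RnrL, Rfabg and CG1635. Gene names are those of the table; 9990 identifiers were found in the Ensembl 115 annotation, 8675 with the same symbol, and newer names in brackets come from there. Replicate libraries of a group differed by more than sampling noise, with a chi-square per degree of freedom of 12.9 to 101 over 12 pairs. A search of promoters for sequence motifs was not run, and no sequences were used here.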

Additional observations from a re-analysis of the deposited data

Results flagged for a closer look

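In the 167 genes named for HSD 16 h against LSD, both groups of 4 libraries were tested with Dixon's criterion, 334 groups in all. Of these 26 held a library that stood apart, where chance flags about 1 in 20 groups. A single flag can therefore not be told from chance. At HSD 16 h, replicate 1 stood apart upward for immune genes, with normalised read counts of 6.66 for Mtk, 7.17 for edin, 2.84 for SPH93 and 3.63 for eater. In the same group replicate 3 stood apart upward for CG15597 (128) and Obp44a (539), and downward for Osi9 (196), Osi14 (148), Cpr65Eb (16.4) and yip7 (1064). Replicate 4 stood apart upward for Amy-p (3.52) and CG8093 (0.733), and downward for AkhR (32.5). Replicate 2 of that group stood apart upward for CG34166 (57.2) and downward for daw (56.1).

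On LSD, replicate 2 stood apart upward for foxo (74.0), CG8036 (633), Lsd-2 (102), ftz-f1 (356) and Hsc70-5 (526). LSD replicate 3 stood apart for Tm2 (2734) and Npc2b (55.6), LSD replicate 4 for bigmax (17.8) and CG3756 (25.6), and LSD replicate 1 for AGBE (87.2) and Dh44 (25.7). The level on high sugar also differed between the 2 times, in 2968 genes for HSD 16 h against HSD 8 h by limma with Benjamini-Hochberg adjustment at 0.05.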

How the results depend on the processing

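For HSD 16 h against LSD, 158 named genes were called. Of these, 132 were called under every alternative that tested them, and 26 lost the call under 1 or more. For HSD 16 h against HSD 8 h, 11 of 16 were, and 5 lost it. A gene that the stricter filter removed, such as Amy-p, was not tested there and was not counted as losing its call. Apart from the sugar regulators, these genes were picked by size or adjusted p in the same data. That choice favours keeping the call, so the counts describe the named genes only. At an adjusted p of 0.01, 2548 genes were called against LSD (1160 higher) and 1507 against HSD 8 h (659 higher, 848 lower). With equal column sums 3173 were higher than on LSD, and 3016 were higher and 1021 lower than at HSD 8 h; quantile normalization gave 2464 higher than at HSD 8 h. Leaving out 1 library gave 3351 to 4071 called against LSD (1584 to 2001 higher, 1767 to 2070 lower), and 2029 to 2595 against HSD 8 h (913 to 1205 higher, 1070 to 1390 lower). The lowest, 913, came without HSD 8 h replicate 2. Without the 3 cuticle-rich libraries, none of them from HSD 8 h, 2922 and 2945 genes were called. With edgeR 3983 and 2927 were called, of which 3838 and 2848 were the same genes in the same direction. Signs turned for foxo (0.0196 under quantile normalization, 0.0696 with equal column sums, -0.103 to 0.0253 without 1 library), cwo (-0.0054 to 0.127 without 1 library) and Myc (-0.0141 to 0.148 without 1 library). List medians turned for fat body markers (-0.34 with the stricter filter), amino acid catabolism (0.0023 under quantile normalization), ecdysone genes (0.0208 with equal column sums), maltases and amylases (-0.316 to 0.0946 without 1 library) and serine and one-carbon synthesis (-0.0228 without the 3 cuticle-rich libraries). The small medians of gluconeogenesis, insulin, heat shock and cytoplasmic ribosomal genes changed sign under some alternatives too. Of the 9 named genes not called against LSD, 5 gained a call under 1 or more. The cause of these turns was not tested. The replicate numbers were not taken to pair the samples, since they are not stated to do so. Same-numbered libraries of HSD 16 h and LSD had correlations of 0.35, 0.15, -0.22 and 0.26 in their deviations from the group means. HSD 16 h replicates 2 and 3 did not correlate best with their own number (replicate 2 had 0.56 with LSD replicate 3). With the replicate block 3619 genes were called against LSD and 2391 against HSD 8 h. At these depths a gene under 3 reads, 0.117 to 0.182 normalised counts, cannot be told from 0.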
